A study of Mus musculus with 6 samples.

Results

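Subplate neurons are among the earliest-born neurons of the neocortex. They lie below layer 6, receive thalamic axons before those axons enter the cortical plate, and send pioneer axons out of the cortex. Many of them die after birth, and the survivors form layer 6b. The 10 genes described here, Ctgf, Cplx3, Nxph4, Lpar1, Tmem163, Moxd1, Inpp4b, Slc8a3, Pde1a and Serpini1, are transcripts used to mark these neurons. They were chosen by symbol, and all 10 were found among the 23420 genes of the count table.

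The table came from RNA sequencing of mouse cortex at embryonic day 18.5. One group carried the label Tshz3 mutant (3 libraries) and the other wild type (3 libraries), and each library came from a pool of 3 to 4 embryos drawn from multiple litters. Tshz3 encodes a zinc finger transcription factor, and the series title ties its deletion to autism and to cortical projection neurons. The comparison asks which transcripts differ between the genotypes. The labels name no allele, strain or sex, and no other genotype or treatment.

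Total counts ran from 18569383 to 24147810 per library. Levels are given as CPM, which scales each count to its library's size (TMM method), and every fold change sets mutant-labelled over wild-type libraries. The Tshz3 transcript was at 89.8, 93.1 and 99.2 CPM in the mutant-labelled libraries 1 to 3, against 78.7, 83.0 and 89.3 CPM in the wild-type libraries, so the gene-level count did not check the genotype labels. For that reason the first group is called mutant-labelled throughout. The tissue was whole cortex. Lower transcript could therefore come from fewer cells of a type or from less RNA per cell, and bulk counts cannot tell these apart.

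The subplate markers did not move in 1 direction, with 3 positive and 7 negative fold changes. Cplx3, which encodes a complexin that binds the vesicle fusion machinery, was the one large difference, at 0.188 ± 0.106 CPM in mutant-labelled and 0.911 ± 0.173 CPM in wild-type libraries (SD, n = 3 each). Nxph4, a secreted neurexophilin, was lower by a smaller amount in each mutant-labelled library, and Pde1a, a calmodulin-dependent phosphodiesterase, was higher in each. The other 7 markers had groups that overlapped. The median log2 fold change of the 10 was −0.13, beside −0.01 over all 14618 tested genes.

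None of the 10 passed edgeR's quasi-likelihood test at an adjusted p of 0.05 without pairing, where 0.0752% of all tested genes did. At an unadjusted p under 0.05, 3 of them did (Cplx3, Nxph4 and Pde1a), where 7.09% of all tested genes did. DESeq2 called 0 of the 9 to which it gave an adjusted p, against 0.722% of all genes. Same-numbered libraries deviated together from their group means, so the test was also run with the library number as a block. In simulated data the blocked test made more false calls than its threshold allows, which limits every call below that rests on it. Where effects shared by same-numbered libraries were simulated, the test without the block missed small differences that the blocked test mostly recovered. Where no such effects were simulated, both tests missed most small differences, and the blocked test recovered slightly fewer. In either setting, not passing without the block was no sign that a small difference was absent. With the block, Cplx3 fell and Pde1a rose at an adjusted p under 0.05, and 8 markers did not pass; 3.46% of all tested genes passed, 1.49% lower and 1.97% higher. Cplx3 entered the test only through its wild-type level, since all 3 mutant-labelled libraries lay under the minimum of 0.481 CPM required in 3 libraries. A gene admitted in that way had to differ, so its share in these counts is a description.

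**Figure D1:**
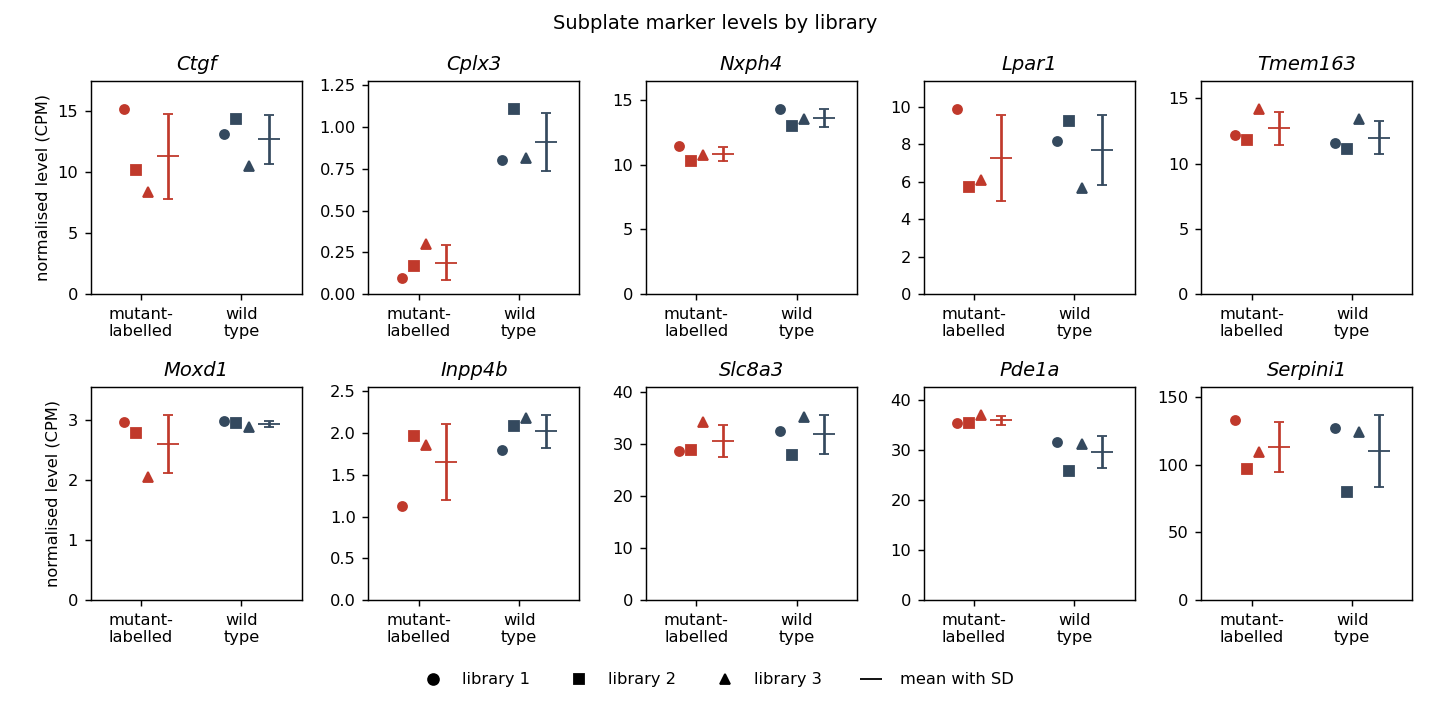
Normalised level (CPM, linear axis from 0) of each of the 10 subplate markers, with mutant-labelled libraries in red on the left and wild-type libraries in dark blue on the right. Symbols give the library number, and the bar beside each group is its mean with SD (n = 3). The groups are apart for Cplx3 and Nxph4, where mutant-labelled libraries are lower, and for Pde1a, where they are higher.

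Cplx3 is a complexin best known from retinal ribbon synapses and, in cortex, from the subplate and layer 6b. Its raw counts were 2, 4 and 6 in mutant-labelled libraries 1, 2 and 3, against 17, 23 and 15 in wild-type libraries 1, 2 and 3. Each mutant-labelled count lay below each wild-type count, by as little as 6 against 15. The corresponding levels were 0.0943, 0.167 and 0.302 CPM in mutant-labelled libraries and 0.806, 1.11 and 0.817 CPM in wild-type libraries. The fitted log2 fold change was −2.26 (SE 0.43, 3 libraries a group), and edgeR gave an adjusted p of 0.19 without pairing and 0.0104 with the block. All 3 same-numbered ratios were negative, at −3.10, −2.74 and −1.43 on the log2 scale.

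The depth behind Cplx3 was small. Summed over libraries, 12 counts in mutant-labelled stood against 55 in wild-type libraries, a ratio of 0.202 with an exact 95% interval of 0.0983 to 0.381. That interval covers counting error only and not the spread between pools. Only its wild-type libraries admitted Cplx3 to the test, so it had to differ. This interval and every p-value given for Cplx3 are therefore descriptions and not tests of a difference. Within number 3 alone the ratio was 0.37, with an interval of 0.118 to 1.01 that includes no difference. With the block and both libraries of number 3 left out, the adjusted p was 0.0554. Leaving out number 1 gave 0.0308 and leaving out number 2 gave 0.00672. Blocked fits without a number keep few libraries, and their calls over all genes ran from 62 to 1874. For any marker, a call kept or lost in them says little about its stability. DESeq2 gave Cplx3 a log2 fold change of −2.29 and no adjusted p, because its independent filter set genes of this depth aside.

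Cplx3 spans chr9:57599992-57606281 on the minus strand of GRCm38, the assembly also named mm10, in 4 exon blocks that share no base with exons of another annotated gene. The tested genes on either side did not pass. Ulk3, 3759 bases away, differed by 0.11 on the log2 scale (SE 0.07), and Csk, 20365 bases away, by −0.04 (SE 0.06). The 250 bases before the annotated start of Cplx3 (RefSeq, GRCm38.p6, chr9:57606282-57606531, minus strand) are shown because Cplx3 had the largest difference in the set. Those before the outermost RefSeq start of Pde1a (chr2:80129413-80129662, minus strand) are shown as the other gene called with the block. The last bases of the Pde1a stretch lie inside the gene as annotated by GENCODE, which reaches to position 80129458. Capitals mark the letters CACGTG, the palindromic E-box bound by several basic helix-loop-helix factors.
Cplx3: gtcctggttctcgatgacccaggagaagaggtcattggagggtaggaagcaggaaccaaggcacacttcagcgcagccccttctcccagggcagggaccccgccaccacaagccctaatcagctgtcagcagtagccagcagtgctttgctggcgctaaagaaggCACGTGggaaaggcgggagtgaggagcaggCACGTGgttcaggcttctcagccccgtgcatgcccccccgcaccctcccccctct
Pde1a: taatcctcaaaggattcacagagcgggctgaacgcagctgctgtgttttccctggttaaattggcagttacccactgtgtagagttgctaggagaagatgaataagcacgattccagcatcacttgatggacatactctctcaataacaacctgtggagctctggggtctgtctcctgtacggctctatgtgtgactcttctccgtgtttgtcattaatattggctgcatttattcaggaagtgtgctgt

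The Cplx3 stretch held 2 matches to CACGTG, whose first bases lie 85 and 55 bases before the start. Of 32851 stretches of the same length in the RefSeq table, 6.02% held at least 1 match and 0.429% at least 2. Promoters of 8 of the 10 markers were in the table, and among these CACGTG occurred before Cplx3 only. AAAGGTCA, a site of the Nr4a nuclear receptors that include the subplate factor Nr4a2, was in 1.34% of all stretches and before none of the 8 genes. GGTGTGA, a core of the T-box site read by Tbr1, was in 3.33% and also before none of them. GGAATG, read by Tead factors, was in 12.6% and before 2 of the 4 Pde1a starts, though not the one printed, and before no other marker. All motifs were read on both strands, none overlapped another in the printed stretches, and a match is a description of letters, not of binding.

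The 2 other complexins expressed in these libraries are the major forms of forebrain synapses. Cplx1 was 150 ± 2.61 CPM in mutant-labelled and 163 ± 11.6 CPM in wild-type libraries, and Cplx2 was 342 ± 13.9 against 377 ± 29.9 CPM (SD, n = 3 each). Their log2 fold changes of −0.12 (SE 0.06) and −0.14 (SE 0.07) did not pass with or without the block. Cplx4, the closest relative of Cplx3, had too few reads to be tested.

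**Figure D2:**
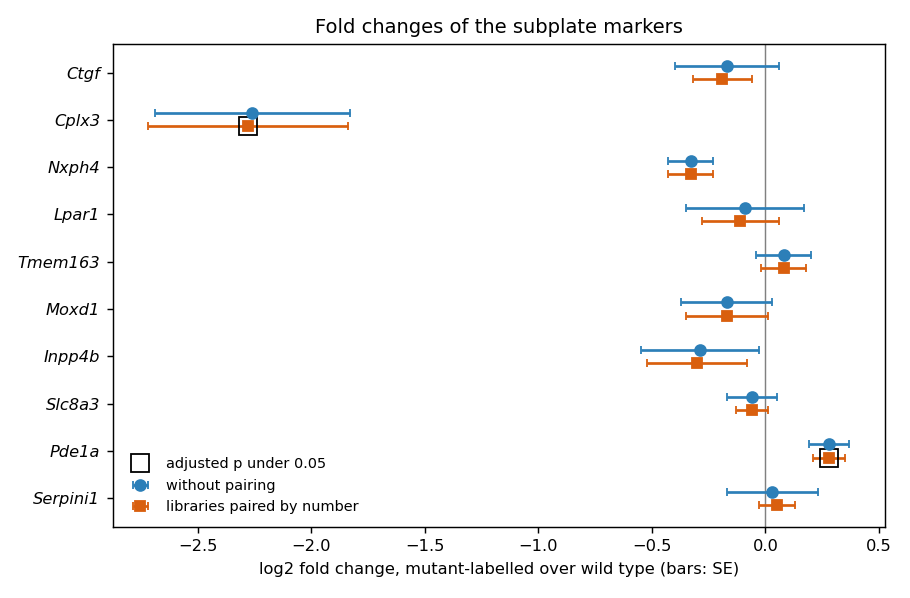
Log2 fold change of each subplate marker, mutant-labelled over wild type, with SE bars, from the edgeR fit without pairing (blue circles) and with libraries paired by number (orange squares). Open black squares mark an adjusted p under 0.05, reached by Cplx3 at −2.28 and Pde1a at 0.28 with pairing and by none without.

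Nxph4 encodes a secreted glycoprotein of the neurexophilin family, ligands of alpha-neurexins, and is among the most subplate-restricted of the markers. Its level was 11.4, 10.3 and 10.7 CPM in mutant-labelled libraries 1, 2 and 3, against 14.3, 13.0 and 13.5 CPM in wild-type libraries 1, 2 and 3. The groups did not overlap, and the 3 same-numbered ratios were −0.33, −0.33 and −0.34 on the log2 scale. The log2 fold change was −0.33 (SE 0.10, 3 libraries a group), and edgeR gave an adjusted p of 0.472 without pairing and 0.0776 with the block. Across the 6 fits that each left out 1 library, the log2 fold change ran from −0.37 to −0.30 and the adjusted p from 0.208 to 1. With the block and number 2 left out the adjusted p was 0.0389, so that this call rested on which libraries entered.

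Groups without overlap occurred in 3 of the 10 markers, 1 higher and 2 lower, beside 13.5% of all tested genes, 7.42% higher and 6.09% lower. Cplx3 is 1 of the 2 lower. It was admitted only through its wild-type libraries and so had to be apart, which makes this count a description. The 3 other neurexophilins did not show it. Nxph1, expressed in interneurons, was 30.2 ± 2.35 CPM in mutant-labelled and 36.6 ± 5.58 CPM in wild-type libraries, with a paired adjusted p of 0.0523. Nxph2 had a log2 fold change of 0.13 (SE 0.19). Nxph3, itself described in layer 6b, had 0.07 (SE 0.08).

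Pde1a breaks down cyclic nucleotides when calcium and calmodulin are bound. It was 35.4, 35.3 and 37.0 CPM in mutant-labelled libraries 1, 2 and 3, against 31.6, 25.9 and 31.3 CPM in wild-type libraries 1, 2 and 3. Each mutant-labelled library lay above each wild-type library, and wild-type library 2 was the lowest of the 6. The log2 fold change was 0.28 (SE 0.09, 3 libraries a group), or 1.21-fold, and edgeR gave an adjusted p of 0.512 without pairing. With the block it was 0.28 (SE 0.07, adjusted p = 0.0468). That call was lost when number 2 (adjusted p = 0.0742) or number 3 (0.327) was left out and kept without number 1 (0.0386). As said for Cplx3, such fits keep few libraries and say little about stability.

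The other calmodulin-dependent phosphodiesterases did not pass. Pde1b, abundant in striatal neurons and also in cortex, was 109 ± 1.72 CPM in mutant-labelled and 119 ± 7.43 CPM in wild-type libraries, with groups that did not overlap and a log2 fold change of −0.13 (SE 0.06). Pde1c had 0.19 (SE 0.11).

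**Figure D3:**
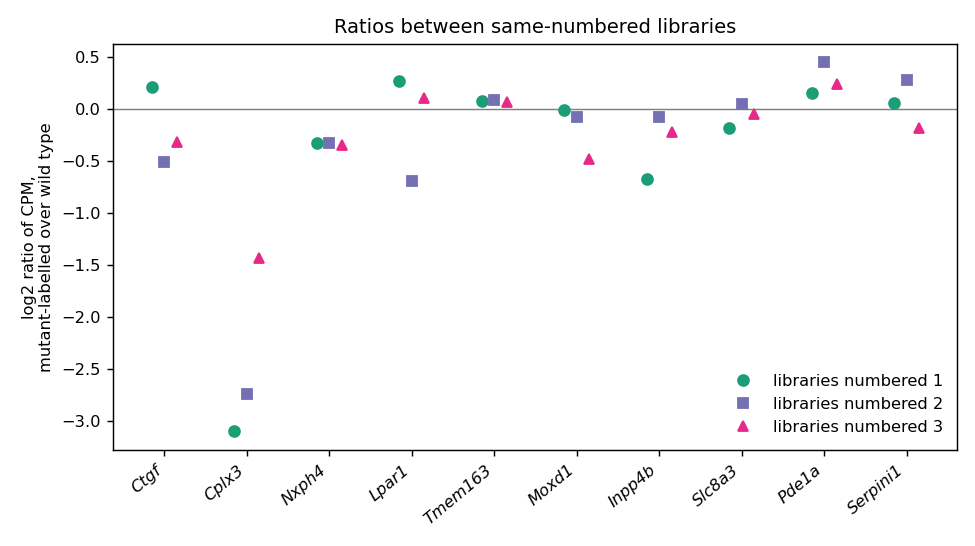
Log2 ratio of CPM between same-numbered libraries, mutant-labelled over wild type, for each subplate marker, with 1 symbol per library number. All 3 ratios are negative for Cplx3, Nxph4, Moxd1 and Inpp4b, all 3 are positive for Tmem163 and Pde1a, and 4 markers have mixed signs.

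Ctgf and Lpar1 varied widely between libraries of 1 genotype. Ctgf, a matricellular protein now named Ccn2, was 15.2, 10.2 and 8.41 CPM in mutant-labelled libraries 1, 2 and 3, against 13.1, 14.4 and 10.5 CPM in wild-type libraries 1, 2 and 3. The groups overlapped, with the highest value of all in mutant-labelled library 1 and the lowest in mutant-labelled library 3. Its log2 fold change was −0.17 (SE 0.23, edgeR adjusted p = 0.947). Lpar1, a receptor for lysophosphatidic acid that marks a subset of subplate neurons, was 9.9, 5.75 and 6.09 CPM in mutant-labelled libraries, against 8.2, 9.27 and 5.66 CPM in wild-type libraries 1, 2 and 3. Its log2 fold change was −0.09 (SE 0.26), and the sign turned to positive when mutant-labelled library 2 or 3 or wild-type library 2 was left out.

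Both genes are also expressed outside neurons, Ctgf in vessels and meninges and Lpar1 in meninges, progenitors and oligodendrocytes. The summed level of 9 meningeal markers was 297, 108 and 90.5 CPM in mutant-labelled libraries 1, 2 and 3, against 375, 277 and 58.7 CPM in wild-type libraries 1, 2 and 3. All 9 were detected in the table, and none passed either fit, where 0.0752% of all tested genes passed without the block and 3.46% with it. All 9 fold changes were negative, with a median of −0.51 on the log2 scale. Their SE without the block ran from 0.46 to 0.91, so not passing is no sign of equal meningeal content. For Ctgf, Lpar1 and the meningeal sum alike, mutant-labelled library 1 and wild-type libraries 1 and 2 were the 3 highest of the 6. The endothelial sum had the same 3 highest. It was 174, 156 and 138 CPM in mutant-labelled libraries 1, 2 and 3, against 183, 165 and 139 CPM in wild type. The oligodendrocyte lineage sum did not share this order, at 214, 223 and 234 CPM in mutant-labelled against 235, 216 and 233 CPM in wild-type libraries. The sum of 5 choroid plexus markers was 815, 191 and 150 CPM in mutant-labelled libraries against 830, 124 and 229 CPM in wild-type libraries 1, 2 and 3, so both libraries numbered 1 stood apart. Without those 2 libraries and without the block, Ctgf had a log2 fold change of −0.42 and Lpar1 one of −0.34, and neither passed. The part of non-neuronal cells in these 2 markers was not tested. Ctgf shares 665 exon bases with Gm15270 on the opposite strand, and whether counting used strand is not stated in these sources, so its count is uncertain to that extent.

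**Figure D4:**
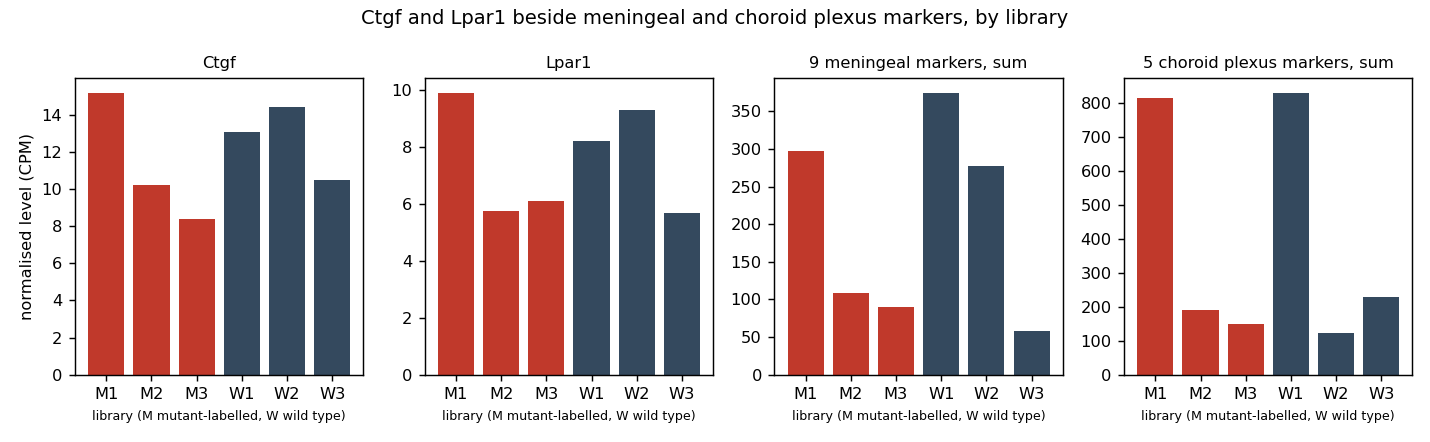
Normalised level (CPM, bars from 0) of Ctgf, Lpar1, the sum of 9 meningeal markers and the sum of 5 choroid plexus markers in each library, mutant-labelled (M1 to M3, red) left of wild type (W1 to W3, dark blue). Libraries M1, W1 and W2 are the 3 highest for Ctgf, Lpar1 and the meningeal sum, and M1 and W1 are the 2 highest for the choroid plexus sum.

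The relatives of Ctgf and partners of Lpar1 were measured beside them. Nov, another Ccn protein, was 22.6 ± 5 CPM in mutant-labelled and 28.8 ± 4.95 CPM in wild-type libraries (SD, n = 3 each). It fell with the block by 0.36 on the log2 scale (SE 0.09, edgeR adjusted p = 0.0341) and not without it (0.797). Cyr61, which like Ctgf is a target of the Yap coactivators, was 12 ± 1.75 against 18 ± 7.1 CPM and did not pass. The 8 tested genes of the Yap list had 5 positive and 3 negative fold changes and no call in either fit. Without the block 0 had an unadjusted p under 0.05, and DESeq2 called 0. Over all tested genes 0.0752% passed without the block, 3.46% passed with it and 7.09% had such an unadjusted p. DESeq2 called 0.722% of all genes, so 0 of so few genes is near these shares. Enpp2, the enzyme that makes lysophosphatidic acid and is abundant in choroid plexus, was 28.4 ± 10.8 CPM in mutant-labelled and 32.3 ± 12.5 CPM in wild-type libraries. Lpar2 was 23.2 ± 2.56 against 22.3 ± 2.97 CPM. The low-level relatives Wisp1, Lpar3, Lpar4 and Lpar6 had log2 fold changes of 0.06, 0.34, −0.13 and −0.08, none of which passed, and Wisp2 and Lpar5 had too few reads to be tested.

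Moxd1 and Inpp4b were low-level markers with negative ratios in all 3 same-numbered comparisons. Moxd1, a copper monooxygenase related to dopamine beta-hydroxylase, was 2.97, 2.79 and 2.06 CPM in mutant-labelled libraries 1, 2 and 3, against 2.99, 2.95 and 2.89 CPM in wild-type libraries 1, 2 and 3. Its groups overlapped, and mutant-labelled library 3 was the lowest of the 6. The log2 fold change was −0.17 (SE 0.20). Inpp4b, a phosphatase of phosphatidylinositol 3,4-bisphosphate, was 1.13, 1.96 and 1.86 CPM in mutant-labelled libraries, against 1.8, 2.08 and 2.18 CPM in wild-type libraries 1, 2 and 3. Its log2 fold change was −0.29 (SE 0.26), and mutant-labelled library 1 lay well below the others. Neither gene passed in any fit run. Ratios of 1 sign in all 3 numbers were seen in 6 of the 10 markers, and in 37% of all tested genes. Cplx3 is 1 of these 6, and it had to differ because only its wild-type libraries admitted it to the test.

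Tmem163, Slc8a3 and Serpini1 differed between genotypes by less than their SE. Tmem163, a zinc-binding vesicle membrane protein, was 12.2, 11.8 and 14.2 CPM in mutant-labelled libraries 1, 2 and 3, against 11.6, 11.1 and 13.4 CPM in wild-type libraries 1, 2 and 3. Within each number the mutant-labelled library was slightly higher, by 0.07 to 0.09 on the log2 scale, and the log2 fold change was 0.08 (SE 0.12). Slc8a3, a sodium-calcium exchanger, was 28.7, 28.8 and 34.1 CPM in mutant-labelled libraries, against 32.4, 27.8 and 35.2 CPM in wild-type libraries 1, 2 and 3. Its log2 fold change was −0.06 (SE 0.11). Serpini1, known as neuroserpin and an inhibitor of tissue plasminogen activator, was 133, 96.6 and 109 CPM in mutant-labelled libraries, against 127, 79.7 and 124 CPM in wild-type libraries 1, 2 and 3. Number 2 was the lowest in both genotypes, and the log2 fold change of Serpini1 was 0.03 (SE 0.20).

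Relatives and partners of these markers were measured too. Slc8a1, the major exchanger of heart and brain, was 269 ± 38.4 CPM in mutant-labelled and 263 ± 38.6 CPM in wild-type libraries, and Slc8a2 was 83.8 ± 7.42 against 86 ± 9.73 CPM. Serpini2, the paralog of Serpini1, had no read in any library. Slc24a2, a potassium-dependent exchanger, was 11.8 ± 2.43 against 8.76 ± 1.01 CPM (log2 fold change 0.43, SE 0.17, paired adjusted p = 0.061). Slc24a4 was 1.63 ± 0.435 against 1.11 ± 0.0668 CPM, without overlap, and passed neither fit. Plat, which encodes tissue plasminogen activator, had a log2 fold change of 0.02 (SE 0.19). Serpine2, another brain inhibitor of that protease, fell by 0.24 with the block (SE 0.06, edgeR adjusted p = 0.0437) and had an adjusted p of 0.75 without it. Inpp4a, the paralog of Inpp4b, was 139 ± 5.05 against 138 ± 7.36 CPM. The phosphoinositide phosphatase genes Tmem55a, at 47.4 ± 0.798 against 41 ± 2.06 CPM, and Inpp5e, at 47.5 ± 1.3 against 41.9 ± 2.43 CPM, had groups apart and higher in mutant-labelled libraries. Their adjusted p values were 0.483 and 0.615 without pairing and 0.086 and 0.137 with the block in edgeR. Of 45 tested relatives and partners of the 10 markers, none passed without the block, 3 had an unadjusted p under 0.05 (7.09% of all genes) and DESeq2 called 0. With the block Nov and Serpine2 fell, none rose and 43 did not pass, where 3.46% of all genes passed. Groups were apart for 4 of the 45 (Tmem55a, Inpp5e, Slc24a4 and Pde1b), beside 13.5% of all tested genes.

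Set per length, the markers covered a wide range. Dividing CPM by the kilobases of annotated exon (GENCODE M21 on GRCm38, which may differ from the annotation used for counting), Serpini1 was highest at 15.5 ± 2.54 RPKM in mutant-labelled and 15.1 ± 3.64 RPKM in wild-type libraries. Nxph4 followed at 6.45 ± 0.332 against 8.12 ± 0.391 RPKM, then Slc8a3 at 5.73 ± 0.579 against 5.96 ± 0.701 RPKM. Pde1a was at 5.97 ± 0.159 against 4.92 ± 0.534 RPKM and Ctgf at 3.94 ± 1.23 against 4.43 ± 0.694 RPKM. Tmem163, Lpar1 and Moxd1 stood lower, at 2.97 ± 0.3, 1.69 ± 0.537 and 0.815 ± 0.151 RPKM in mutant-labelled libraries, against 2.8 ± 0.282, 1.8 ± 0.432 and 0.92 ± 0.0157 RPKM in wild type. Cplx3 and Inpp4b were lowest, at 0.0636 ± 0.0357 and 0.126 ± 0.0347 RPKM in mutant-labelled libraries, against 0.308 ± 0.0584 and 0.155 ± 0.0151 RPKM in wild type.

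In that order, neighbours in wild type had libraries that overlapped for Slc8a3 and Pde1a and for Pde1a and Ctgf, and were otherwise apart. Within each library Cplx3 lay below Inpp4b in all 3 mutant-labelled pools and above it in all 3 wild-type pools. Across mutant-labelled libraries the ranges of these 2 genes overlapped. Slc8a3 lay below Nxph4 in every wild-type library, and these 2 also overlapped in mutant-labelled libraries.

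The 10 markers lie on 8 chromosomes. Nxph4 spans chr10:127525473-127534559 on the minus strand, and Moxd1 and Ctgf lie on the plus strand of the same chromosome at chr10:24223517-24302790 and chr10:24595442-24598683. Pde1a spans chr2:79834453-80129458 on the minus strand, Serpini1 chr3:75557547-75643495 on the plus strand and Lpar1 chr4:58435255-58553898 on the minus strand. Inpp4b, the longest gene, spans chr8:81342556-82127914 on the plus strand. Tmem163 and Slc8a3 span chr1:127486546-127679548 and chr12:81197915-81333180, both on the minus strand. All intervals are whole genes on GRCm38. For each marker the nearest tested gene on either side whose span did not overlap it was examined, 20 comparisons in all, in which Moxd1 and Ctgf are each other's neighbours. None of these neighbours passed either fit, where 0.0752% of all tested genes passed without the block and 3.46% with it. Their median absolute log2 fold change was 0.07, beside 0.09 over all tested genes.

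Another 15 genes reported as enriched in subplate neurons or layer 6b were examined as a second list. None passed without the block, 3 had an unadjusted p under 0.05 (Nr4a2, Trh and Ogfrl1), and DESeq2 called 1, Ogfrl1. Over all tested genes 7.09% had such an unadjusted p and DESeq2 called 0.722%. With the block Ogfrl1 rose and 14 did not pass, where 3.46% of all genes passed. Ogfrl1, related to the opioid growth factor receptor, was 41.1 ± 1.23 CPM in mutant-labelled and 30.5 ± 2.61 CPM in wild-type libraries (SD, n = 3 each), and its log2 fold change was 0.43 (SE 0.08). Its adjusted p was 0.177 without pairing, 0.00323 with the block and 0.00653 in DESeq2. The list median was −0.04.

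Nr4a2, the nuclear receptor Nurr1 found in subplate and layer 6b neurons, was 101 ± 0.695 CPM in mutant-labelled and 91.5 ± 5.37 CPM in wild-type libraries. Its groups did not overlap, and its log2 fold change of 0.14 (SE 0.06) had an adjusted p of 0.678, or 0.111 with the block. Kcnab1, a potassium channel beta subunit, was 16.7 ± 0.769 against 18.9 ± 0.393 CPM, also without overlap and not called. Trh, the thyrotropin-releasing hormone precursor, was 0.996 ± 0.0431 against 1.52 ± 0.334 CPM, with a log2 fold change of −0.61 (SE 0.25, adjusted p = 0.678). Groups were apart for these 3 genes and Ogfrl1, 4 of 15, beside 13.5% of all tested genes. The remaining 11 had groups that overlapped, among them Drd1a at 12.5 ± 0.304 against 13.4 ± 2.56 CPM, Zfpm2 at 37.6 ± 1.28 against 41.3 ± 4.92 CPM and Gabra5 at 74 ± 8.47 against 75.4 ± 13.2 CPM. The cadherin genes Cdh10 and Cdh18 had log2 fold changes of 0.02 (SE 0.08) and −0.17 (SE 0.18). Nxph3 is given above, and Pls3, Adra2a, Svil, Rcan2 and Kcnt2 lay at −0.05, −0.04, 0, −0.04 and −0.09.

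**Figure D5:**
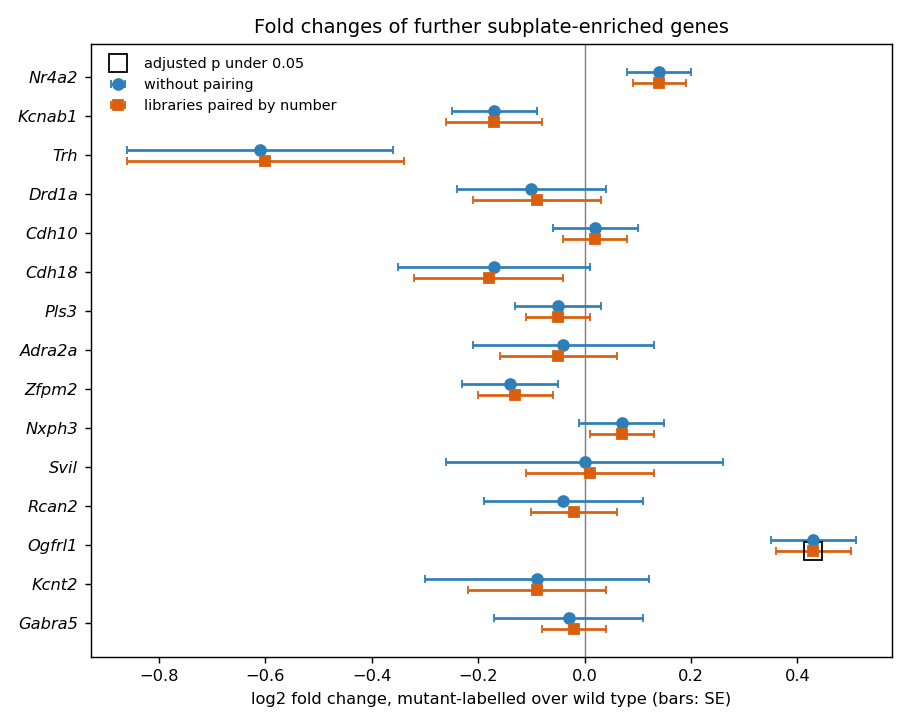
Log2 fold change of 15 further subplate-enriched genes, mutant-labelled over wild type, with SE bars, without pairing (blue circles) and with libraries paired by number (orange squares). The open black square marks the 1 gene with an adjusted p under 0.05, Ogfrl1 at 0.43 with pairing.

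Layer 6 lies directly above the subplate and shares several markers with it. Tbr1, a T-box factor of both, was 253 ± 10.4 CPM in mutant-labelled and 250 ± 27.2 CPM in wild-type libraries. Of 10 tested layer 6 genes, 5 had positive and 5 negative fold changes. Hs3st4 passed without the block, where 0.0752% of all tested genes did. It was 50.6 ± 1.7 CPM in mutant-labelled and 84.1 ± 8.65 CPM in wild-type libraries. Its log2 fold change was −0.73 (SE 0.08, edgeR adjusted p = 0.0317, with the block 3.26e-06). Hs3st4, Syt6 and Ntsr1 fell with the block while 7 did not pass, where 3.46% of all genes passed. With the block, Syt6 and Ntsr1 had log2 fold changes of −0.23 and −0.25 (edgeR adjusted p = 0.0252 and 0.0182). Groups were apart in 1 gene that was higher and 3 that were lower, beside 7.42% and 6.09% of all tested genes. Crym, a thyroid hormone binding protein, was 59.9 ± 3.35 CPM in mutant-labelled and 41.4 ± 6.82 CPM in wild-type libraries, with groups apart. DESeq2 called it higher (adjusted p = 0.0145) beside Hs3st4, and edgeR did not (0.3, with the block 0.0786). DESeq2 thus called 2 of the 10 layer 6 genes, beside 0.722% of all genes. Zfpm2 is in both the layer 6 and the second subplate list. The summed level of 9 pan-neuronal genes ran from 8580 to 9380 CPM in mutant-labelled and from 8770 to 9520 CPM in wild-type libraries, so the ranges overlapped. Of these 9 genes, 2 had positive and 7 negative fold changes, and Rbfox3, the neuronal splicing factor NeuN, fell with the block (log2 fold change −0.19, SE 0.04, adjusted p = 0.0335, against 0.779 without it). Penk, an enkephalin precursor among 7 striatal markers, fell with the block by 0.55 (SE 0.12, adjusted p = 0.0277, against 0.633 without it). So 1 of the 9 pan-neuronal and 1 of the 7 striatal genes passed with the block, where 3.46% of all genes did. The sums of 7 oligodendrocyte lineage genes, 214 to 234 against 216 to 235 CPM, and of 8 endothelial genes, 138 to 174 against 139 to 183 CPM, overlapped as well.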

How the data were processed

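The authors deposited raw counts of reads per gene symbol for 6 libraries, with no normalization. The sequencing kit was Illumina's stranded TruSeq, per the labels' protocols. CASAVA 1.8.2, TopHat2 2.0.9, Bowtie2 2.1.0, HTSeq 0.5.3p9 and build mm10 are named, per the submitters' processing notes, without settings, and neither the annotation nor the strand setting is stated.

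Genes were tested in edgeR 4.0.16 (R 4.3.3) by the quasi-likelihood test with TMM scaling and default filtering, two-sided, with Benjamini-Hochberg adjustment over 14618 genes at a threshold of 0.05. SE was taken from the F statistic. The fits were tested on simulated data, where the share of false calls exceeded the threshold in the blocked fit, and in the fit without the block when no pair effects were simulated. Alternatives were DESeq2 1.42.0, other scaling, no filter, left-out libraries and the library number as a block. Replicates of a genotype differed by more than sampling noise (chi-square per degree of freedom 7.13 to 23.1). Deviations of same-numbered libraries correlated at 0.61, 0.51 and 0.47, above the bound of 0.1, so the numbers were taken to pair libraries; the labels do not say what they share. With 3 libraries per group such values are not independent of each other. P-values without the block reflect spread between pools of animals. Those with the block reflect only the spread left after differences between library numbers are removed, and so rest on the assumed pairing.

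The markers and 22 other gene lists, 23 lists of 152 symbols with 151 found, were chosen with earlier results of these data known. All markers are named; other listed genes are named when called with or without the block or in the second subplate list, and most paralogs of the markers are named. Promoter letters came from the RefSeq table.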

Additional observations from a re-analysis of the deposited data

How the results depend on the processing

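Depth limited Cplx3, Inpp4b and Moxd1 most. Over all genes, 11 were called (7 higher, 4 lower) without the block, 20 (11 and 9) without an expression filter, 102 (59 and 43) by DESeq2 and 506 (288 and 218) with the replicate block. Leaving out 1 library gave 3 to 35 calls (1 to 21 higher, 2 to 14 lower), the most without wild type 2. The block with 1 number left out gave 295 (141 higher, 154 lower) without number 1, 1874 (1119 and 755) without number 2 and 62 (35 and 27) without number 3, and leaving out both libraries numbered 1 without the block gave 2 (1 and 1). These last 2 alternatives were chosen after seeing the data.

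Of the 10 subplate markers, 0 were called without the block and in every fit that left out 1 library, and 2 with the block (1 higher, 1 lower). The block gave 2 without number 1 (1 and 1), 2 without number 2 (0 and 2) and 0 without number 3. Of the 15 further markers, 0 were called without the block, 1 by DESeq2 and 1 with the block, all higher, and with the block 1 without number 1, 1 without number 2 and 0 without number 3. The median log2 fold change of the 10 was −0.13 and ran from −0.21 to −0.01 when 1 library was left out, the last without mutant-labelled library 3.

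Signs turned for 3 markers with small fold changes. Lpar1 ran from −0.38 to 0.06 when 1 library was left out: it was 0.05 without mutant-labelled library 2, 0.02 without mutant-labelled library 3, 0.06 without wild type 2 and 0.20 with the block and number 2 left out. Slc8a3 was 0.02 without wild type 3 and 0 with the block and number 1 left out. Serpini1 ran from −0.15 to 0.15 and was −0.10 without mutant-labelled library 1, −0.15 without wild type 2 and −0.06 with the block and number 2 left out. The causes were not tested. The block moved no other marker past the threshold than Cplx3 and Pde1a on all 6 libraries.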

Other observations

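Tmem163 lies beside Mgat5, a glycosyltransferase gene with which it shares 152 exon bases on opposite strands. Mgat5 had 24, 371 and 63 counts in mutant-labelled libraries 1, 2 and 3, against 27, 393 and 58 counts in wild-type libraries 1, 2 and 3, so that its level followed the library number and not the genotype. In CPM it was 1.13, 15.5 and 3.17 in mutant-labelled and 1.28, 19 and 3.16 in wild-type libraries. Tmem163, at 11.1 to 14.2 CPM in all 6 libraries, did not share this pattern. Mgat5 was noticed after its values were seen.

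Over the 6 libraries, the 5 genes whose log2 CPM was most like the mean standardised level of the 10 subplate markers were Nsmaf (r = 0.997), Set (0.995), Cd55 (0.994), Commd10 (0.993) and Hnrpdl (0.993), of 12782 genes compared. These values describe 6 points that share library and genotype, and the highest of many such values are large in any data of this size.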
